A study of Mus musculus with 8 samples.

Results

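The 10 genes described here are regulators and markers of the trophectoderm, the outer cell layer of the mouse blastocyst: the transcription factors Cdx2, Eomes, Elf5, Tfap2a, Tfap2c, Gata2, Gata3 and Hand1 and the keratins Krt8 and Krt18. They were chosen by name, and all 10 have a row among the 24062 genes of the count tables. RNA was measured by RNA-seq in 4 conditions of mouse embryonic stem cells (mESCs), with 2 libraries each. All 8 libraries came from 1 clone, #33-6, which carries a conditional Setdb1 allele, grown in DMEM with FCS, KSR and LIF on gelatin. WT mESCs received no treatment. UNC0642-treated WT mESCs received 2 µM UNC0642, an inhibitor of the catalytic activity of G9a and GLP, for 3 days. Setdb1 KO mESCs received 800 nM 4-OHT, which induces the deletion, for 5 days. UNC0642-treated Setdb1 KO mESCs received, per the labels, 800 nM 4-OHT for 2 days and then 2 µM UNC0642 for 3 days. WT mESCs had no 4-OHT, so the deletion and 4-OHT itself cannot be told apart.

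The trophectoderm gives rise to the trophoblast of the placenta, while mESCs derive from the inner cell mass. In the outer cells of the embryo, TEAD4 with the Hippo pathway coactivator YAP, together with GATA3, switches on Cdx2, and CDX2, EOMES, ELF5 and TFAP2C then form the factor network of trophoblast stem cells. SETDB1 places H3K9me3 and G9a/GLP place most H3K9me2, both repressive histone marks. The study of these cells reports that part of the H3K9me2 depends on SETDB1 as well, so the marks are not split cleanly between the enzymes. Loss of SETDB1 is known for letting mESCs express trophoblast genes. The comparison made here asks whether the 10 genes moved when SETDB1, G9a/GLP activity or both were removed.

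RefSeq promoters, from 250 bases before to 50 bases after a start site on GRCm38.p6, were matched for 8 of the 10 genes. Hand1 and Tfap2c had no entry. The promoters of Krt8 and Krt18 are shown because their genes are a neighbouring pair with their highest levels in the Setdb1 KO libraries. That of Eomes is shown because it was the single gene of the 10 called in any edgeR fit, in a comparison where 15.7% of all genes were called. That of Cdx2 is shown because the gene was at the detection floor. Capitals mark matches, on either strand, to GCCNNNGGC (the AP-2 letters of the Tfap2 proteins, which read the same on both strands), the letters AGATAA read by GATA proteins, the letters AGGTGT read by T-box proteins such as EOMES, the letters GGAATG read by TEAD proteins, and CCAAT. No matches to different motifs overlapped in these promoters. The other letters are in lower case.
Krt8: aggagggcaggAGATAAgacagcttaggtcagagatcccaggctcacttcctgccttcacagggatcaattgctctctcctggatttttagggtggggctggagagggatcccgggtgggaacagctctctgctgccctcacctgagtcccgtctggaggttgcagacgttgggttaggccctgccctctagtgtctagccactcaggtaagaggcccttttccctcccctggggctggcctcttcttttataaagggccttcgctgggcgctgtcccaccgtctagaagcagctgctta
Krt18: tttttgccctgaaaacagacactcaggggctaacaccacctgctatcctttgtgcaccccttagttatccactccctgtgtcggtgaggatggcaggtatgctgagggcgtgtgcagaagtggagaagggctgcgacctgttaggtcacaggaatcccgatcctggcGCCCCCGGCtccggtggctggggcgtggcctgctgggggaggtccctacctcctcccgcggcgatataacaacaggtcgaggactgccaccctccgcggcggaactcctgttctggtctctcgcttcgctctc
Eomes: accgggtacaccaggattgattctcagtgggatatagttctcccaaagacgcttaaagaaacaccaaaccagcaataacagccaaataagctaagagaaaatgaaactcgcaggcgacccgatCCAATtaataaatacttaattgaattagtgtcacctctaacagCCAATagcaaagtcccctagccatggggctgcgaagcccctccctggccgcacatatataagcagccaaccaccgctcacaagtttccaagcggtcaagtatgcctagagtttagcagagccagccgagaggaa
Cdx2: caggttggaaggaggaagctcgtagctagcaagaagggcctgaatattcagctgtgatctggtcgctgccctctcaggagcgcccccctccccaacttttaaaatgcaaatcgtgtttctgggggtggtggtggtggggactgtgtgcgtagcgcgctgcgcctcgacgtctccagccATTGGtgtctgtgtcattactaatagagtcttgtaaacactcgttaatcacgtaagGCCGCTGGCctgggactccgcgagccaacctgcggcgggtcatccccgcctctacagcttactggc

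The Krt8 promoter lies at chr15:102004293-102004592 on the minus strand and the Krt18 promoter at chr15:102027966-102028265 on the plus strand. The Eomes promoter lies at chr9:118477939-118478238 on the plus strand and the Cdx2 promoter at chr5:147307200-147307499 on the minus strand. Krt8 held 1 GATA match, which began at -239 from its start, and Krt18 held 1 AP-2 match at -83. Eomes held 2 CCAAT matches, at -127 and -84, and none of the other motifs. Cdx2 held 1 AP-2 match at -16 and 1 CCAAT match at -72. Among all 32851 RefSeq promoters of the same length, AP-2 letters were in 16.6%, GATA in 11.2%, T-box in 13.7%, TEAD in 14.7% and CCAAT in 37.4%. The Gata3 promoter held 3 AP-2 matches. Krt8 held 6 CpG dinucleotides, Eomes 10, Krt18 17 and Cdx2 18, beside a median of 7 over all promoters. These matches describe the letters and are not measured binding sites.

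Library totals were between 11702590 and 26807807 counts, and levels are given as CPM (counts scaled to library size) normalised by TMM, edgeR's scaling between libraries. Setdb1 itself was at 169 and 127 CPM in WT mESCs, 130 and 86.3 with UNC0642, 47.3 and 51.0 in the Setdb1 KO libraries, and 61.1 and 34.1 with both treatments. No KO library reached the level of a library without 4-OHT. The log2 fold change of Setdb1 in Setdb1 KO over WT mESCs was -1.59 (SE 0.44, edgeR adjusted p = 0.181, and 0.0164 with the replicate number as a block). Replicates with the same number deviated together across genes, so both fits are used, and a gene is called at an adjusted p under 0.05. Neither the labels nor the study's methods state that same-numbered replicates are paired. The study's methods call the replicates biological, without saying how they were kept separate, and the p-values measure the spread between these libraries. In bulk RNA, a change in the share of cells that express a gene and a change in the RNA per cell cannot be told apart.

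In the fit without the block, none of the 8 tested genes was called in any of the 6 comparisons. Over all 15313 genes tested, edgeR called 0% in UNC0642-treated over untreated WT mESCs (522 genes at an unadjusted p under 0.05), 0.888% in Setdb1 KO over WT mESCs and 3.62% in UNC0642-treated Setdb1 KO over WT mESCs. It called 0% between UNC0642-treated and untreated Setdb1 KO mESCs (720 genes at an unadjusted p under 0.05), 0.908% between UNC0642-treated Setdb1 KO and UNC0642-treated WT mESCs, and 0% for the interaction (119 genes at an unadjusted p under 0.05). With the block the corresponding shares were 0.176%, 3.32%, 15.7%, 0.124%, 3.79% and 0%. With the block, 1 of the 8 was called, Eomes, which fell in UNC0642-treated Setdb1 KO relative to WT mESCs. At an unadjusted p under 0.05 and without the block, Krt8 and Tfap2a were higher in the Setdb1 KO libraries than in WT, Eomes was lower in UNC0642-treated than in untreated Setdb1 KO mESCs, and Krt8 was higher and Gata2 lower in UNC0642-treated Setdb1 KO than in UNC0642-treated WT mESCs. In DESeq2 without a block, 0 of the 8 were called in any comparison, while the shares over all genes, in the order above, were 0.718%, 2.91%, 8.52%, 0.660%, 3.01% and 0.00653%. DESeq2 with the block, chosen after the data were seen, called 1 of the 8 in each of 4 comparisons: Krt8 in Setdb1 KO over WT mESCs (6.88% of all genes), Eomes in UNC0642-treated Setdb1 KO over WT (22.4%) and over Setdb1 KO mESCs (2.55%), and Krt8 in UNC0642-treated Setdb1 KO over UNC0642-treated WT mESCs (7.75%). It called 0 of the 8 with UNC0642 in WT mESCs (1.61% of all genes) and for the interaction (0.0457%).

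Per kilobase of exon, Tfap2c was the highest of the 10 in WT mESCs, at 14.8 ± 1.67 CPM per kb (SD, n = 2), followed by Eomes at 4.85 ± 0.0907. Krt18, at 3.76 ± 2.13 CPM per kb, overlapped Eomes and also Krt8, at 2.33 ± 0.775. Gata3 at 0.747, Hand1 at 0.643 and Gata2 at 0.433 CPM per kb formed a separate, lower range, and their libraries did not overlap with their neighbours in this order. Tfap2a at 0.0847, Cdx2 at 0.0831 and Elf5 at 0.0463 CPM per kb were lowest and overlapped. Tfap2c and Eomes together took between 53.3% and 82.5% of the summed CPM of the 10 genes in a library. Tfap2c had the highest mean in every condition, and the keratins had higher means than Eomes only in UNC0642-treated Setdb1 KO mESCs, where both Krt8 libraries lay above both Eomes libraries and Krt18 overlapped Eomes.

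**Figure D1:**
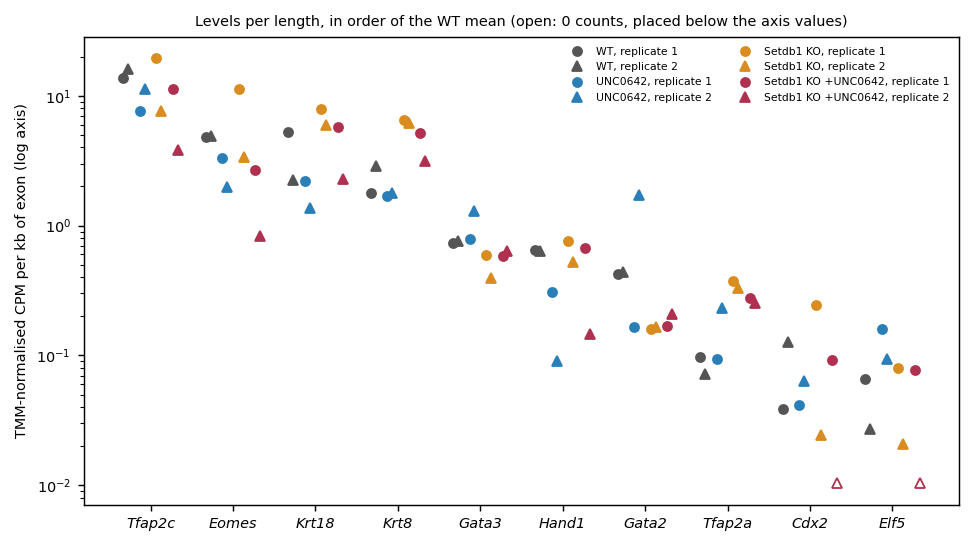
Levels of the 10 genes in TMM-normalised CPM per kb of exon (log axis), in order of the WT mean, with 1 point per library, coloured by condition and shaped by replicate. Tfap2c, Eomes and the keratins sit highest, and Cdx2 and Elf5 sit lowest, with 0 counts (open points) in UNC0642-treated Setdb1 KO replicate 2.

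Cdx2 and Elf5 were close to absent in all 4 conditions. Cdx2 (chr5:147300805-147307270, minus strand, positions from GENCODE M21 on GRCm38), the caudal-type factor that sets the trophectoderm apart from the inner cell mass, had 1 and 8 counts in the WT libraries, 2 and 4 with UNC0642, 13 and 1 in Setdb1 KO mESCs, and 2 and 0 with both treatments. It exceeded the floor of 3 counts in 3 of 8 libraries, and its highest level was 0.550 CPM in Setdb1 KO replicate 1, where the other Setdb1 KO library had 0.0550. Elf5 (chr2:103411688-103450989, plus strand), an ETS factor that maintains trophoblast stem cells and is known for DNA methylation of its promoter in mESCs, had 2 and 2 counts in WT mESCs, 9 and 7 with UNC0642, 5 and 1 in Setdb1 KO mESCs, and 2 and 0 with both. Both UNC0642 libraries of WT mESCs were above both WT libraries for Elf5, at 0.423 and 0.252 against 0.174 and 0.0721 CPM. The share of all genes separated in this comparison was not counted. Neither gene passed the filter on low counts. Where both were at 0, in UNC0642-treated Setdb1 KO replicate 2, 0 of 26250060 counts allows a level of up to 0.110 CPM, a limit that covers counting error only. A fit without the filter called neither gene. Its 95% interval for Cdx2 in Setdb1 KO over WT mESCs ran from -2.48 to 3.67 on the log2 scale, so changes of either sign within that range remain compatible with these counts.

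Eomes was below WT in the libraries of both UNC0642 conditions and uneven in Setdb1 KO mESCs. Eomes (chr9:118478212-118486132, plus strand) encodes a T-box factor of trophoblast stem cells, and is also used by early mesoderm and endoderm. Its levels were 17.7 and 18.1 CPM in WT mESCs, 12.2 and 7.26 with UNC0642, 41.5 and 12.4 in Setdb1 KO mESCs, and 9.86 and 3.05 with both treatments. Both UNC0642-treated Setdb1 KO libraries and both UNC0642-treated WT libraries were below both WT libraries, and the Setdb1 KO libraries lay on either side of them. Over all genes tested, 42.1% did not overlap WT with both treatments, in either direction, and this share was not counted for UNC0642 alone. Over WT mESCs the log2 fold change with both treatments was -1.49 (SE 0.73, 95% interval -3.12 to 0.14, edgeR adjusted p = 0.325). With the replicate block Eomes fell by 1.77 (SE 0.47, edgeR adjusted p = 0.0347) on the log2 scale, in a comparison where 15.7% of all genes were called. It was lower in 2 of 2 pairs of same-numbered libraries, a pairing inferred from these data. Without the block, leaving out UNC0642-treated Setdb1 KO replicate 2 gave -0.86 and leaving out replicate 1 gave -2.55. UNC0642-treated over untreated Setdb1 KO mESCs gave -2.08 (SE 0.74, edgeR adjusted p = 0.875, and 0.155 with the block). UNC0642-treated over untreated WT mESCs gave -0.88 (SE 0.71), and -1.02 with the block (SE 0.45, edgeR adjusted p = 0.585). The libraries of the 2 UNC0642 conditions overlapped. UNC0642-treated Setdb1 KO over UNC0642-treated WT mESCs gave -0.61 (SE 0.71), and -0.75 with the block (SE 0.45, edgeR adjusted p = 0.427). Setdb1 KO over WT mESCs gave 0.59 (SE 0.70, edgeR adjusted p = 1), which became -0.53 without Setdb1 KO replicate 1. In both KO conditions the library that was higher in Eomes was also higher in Bmp4, a growth factor of mesoderm and extraembryonic ectoderm, at 109 CPM in Setdb1 KO replicate 1 against 8.91 in replicate 2, and at 45.0 against 8.05 in the UNC0642-treated Setdb1 KO libraries. Bmp4 was at 17.0 and 63.9 CPM in WT mESCs, where Eomes was even. The 8 mesoderm markers, Bmp4 among them, summed to 20.2 and 67.3 CPM in WT mESCs, 61.0 and 36.1 with UNC0642, 112 and 10.2 in Setdb1 KO mESCs, and 46.6 and 8.82 with both. Bmp4, which is not specific to mesoderm, made up most of the sum in every library. The sum therefore restates Bmp4 and is not a separate sign of mesoderm. Of the other markers, T reached at most 0.762 CPM, Mesp1 0.108, Mixl1 1.57, Kdr 1.02, Hand2 0.174, Tbx6 0.685 and Foxf1 0.870. Of the 8, 5 were tested and none was called in either fit, and the part of such cells in the Eomes values was not tested.

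The AP-2 factors Tfap2c and Tfap2a differed in level and in pattern. Tfap2c (chr2:172549593-172558622, plus strand), which opens trophoblast enhancers and is also expressed in naive mESCs and germ cells, was at 44.6 and 52.3 CPM in WT mESCs, 25.1 and 37.0 with UNC0642, 63.9 and 24.9 in Setdb1 KO mESCs, and 37.3 and 12.6 with both. The WT libraries were above both libraries of either UNC0642 condition, and the Setdb1 KO libraries lay on either side of WT. With both treatments 42.1% of all genes tested did not overlap WT, in either direction, and with UNC0642 alone this was not counted. The log2 fold changes over WT mESCs were -0.64 (SE 0.61) with UNC0642, -0.13 (SE 0.61) in Setdb1 KO and -0.97 (SE 0.61, edgeR adjusted p = 0.475) with both. Without Setdb1 KO replicate 2 the Setdb1 KO value was 0.37, and without replicate 1 it was -0.96.

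Tfap2a (chr13:40715302-40738376, minus strand), a second AP-2 factor of the early trophectoderm, was higher in each of the 4 KO libraries than in each WT library. It had 5 and 9 counts in WT mESCs (0.435 and 0.325 CPM), 9 and 29 with UNC0642 (0.423 and 1.04), 40 and 27 in Setdb1 KO mESCs (1.69 and 1.49), and 12 and 31 with both (1.25 and 1.14). The log2 fold change of Setdb1 KO over WT mESCs was 2.08 (SE 0.77, 95% interval 0.33 to 3.82, edgeR unadjusted p = 0.0243, adjusted p = 0.400, and 0.143 with the block). Leaving out any 1 library kept this value between 1.85 and 2.27. UNC0642-treated Setdb1 KO over WT mESCs gave 1.66 (SE 0.78, edgeR adjusted p = 0.307). These differences were larger than the gap between replicates but did not pass the adjustment over all genes. Setdb1 KO libraries did not overlap WT, in either direction, for 29.3% of all genes tested, and UNC0642-treated Setdb1 KO libraries for 42.1%.

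Gata3 (chr2:9857078-9890034, minus strand) and Gata2 (chr6:88193891-88207032, plus strand), zinc finger factors that act beside CDX2 in the trophoblast, had lower levels in the KO libraries, without passing the test. Gata3 was at 2.35 and 2.45 CPM in WT mESCs, 2.54 and 4.17 with UNC0642, 1.90 and 1.27 in Setdb1 KO mESCs, and 1.87 and 2.06 with both. Gata2 was at 1.57 and 1.62 CPM in WT mESCs, 0.611 and 6.33 with UNC0642, 0.592 and 0.605 in Setdb1 KO mESCs, and 0.623 and 0.772 with both. All 4 KO libraries were below both WT libraries for either gene. Over all genes tested, 29.3% did not overlap WT in Setdb1 KO mESCs and 42.1% with both treatments, in either direction. The log2 fold change of Setdb1 KO over WT mESCs was -0.60 (SE 0.60) for Gata3 and -1.41 (SE 0.97, edgeR adjusted p = 0.888) for Gata2. The UNC0642-treated WT libraries differed 10.4-fold in Gata2, and 1 of them decided its value: the log2 fold change with UNC0642 was 1.12 with both libraries, -1.41 without replicate 2 and 1.99 without replicate 1. In the same way, Gata2 in UNC0642-treated Setdb1 KO over UNC0642-treated WT mESCs was -2.29 (SE 0.99, edgeR adjusted p = 0.520) and became 0.21 without UNC0642-treated WT replicate 2. That library was also the highest in Gata3. The annotated genes that overlap Gata3, 4930412O13Rik and 9230102O04Rik, had at most 2 counts and 1 count in a library, and whether counting used the strand is not given in the sources used here.

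Hand1 (chr11:57828705-57832818, minus strand), a basic helix-loop-helix factor needed for trophoblast giant cells, was low throughout. It was at 1.31 and 1.26 CPM in WT mESCs, 0.611 and 0.180 with UNC0642, 1.52 and 1.05 in Setdb1 KO mESCs, and 1.35 and 0.294 with both. The UNC0642-treated WT libraries were below both WT libraries, a separation not counted over all genes, and both KO conditions overlapped WT. The log2 fold change with UNC0642 was -1.71 (SE 0.94, edgeR adjusted p = 1, and 0.492 with the block), from 13 and 5 counts. In Setdb1 KO over WT mESCs it was 0.0048 (SE 0.89, 95% interval -1.99 to 2.00), so changes of either sign within that range remain compatible with these counts.

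Every Setdb1 KO library had more of both keratins than every WT library, without passing the adjustment over all genes. Setdb1 KO and WT libraries did not overlap, in either direction, for 29.3% of all genes tested. Krt8 (chr15:101996698-102004482, minus strand) and Krt18 (chr15:102028180-102032027, plus strand) encode proteins that pair to build the intermediate filaments of simple epithelia and are the first keratins of the trophectoderm. Krt8 was at 3.48 and 5.63 CPM in WT mESCs, 3.29 and 3.49 with UNC0642, 12.8 and 12.0 in Setdb1 KO mESCs, and 10.2 and 6.14 with both. All 4 KO libraries were above all 4 libraries without 4-OHT, and the share of all genes with that pattern was not counted. The log2 fold change of Krt8 in Setdb1 KO over WT mESCs was 1.44 (SE 0.53, 95% interval 0.24 to 2.63, edgeR unadjusted p = 0.0233, adjusted p = 0.391, and 0.101 with the block), and leaving out 1 library at a time kept it between 1.14 and 1.82. UNC0642-treated Setdb1 KO over UNC0642-treated WT mESCs gave 1.26 (SE 0.53, edgeR adjusted p = 0.503, and 0.139 with the block).

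Krt18 was at 7.57 and 3.25 CPM in WT mESCs, 3.15 and 1.98 with UNC0642, 11.3 and 8.58 in Setdb1 KO mESCs, and 8.30 and 3.27 with both. The Setdb1 KO libraries were above all libraries without 4-OHT, a pattern not counted over all genes, and the UNC0642-treated Setdb1 KO libraries overlapped WT. Setdb1 KO over WT mESCs gave a log2 fold change of 0.88 (SE 0.66, edgeR adjusted p = 0.929), which was 0.38 without WT replicate 2 and 1.61 without WT replicate 1. With the block it was 1.00 (SE 0.38, edgeR adjusted p = 0.220). Per kilobase of exon, the ratio of Krt8 to Krt18 was 0.337 and 1.27 in WT mESCs, 0.767 and 1.29 with UNC0642, 0.833 and 1.03 in Setdb1 KO mESCs, and 0.899 and 1.38 with both. The ratio was lower in replicate 1 than in replicate 2 of every condition, whatever the treatment. The genes are transcribed away from each other, with 23697 bases between them.

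**Figure D2:**
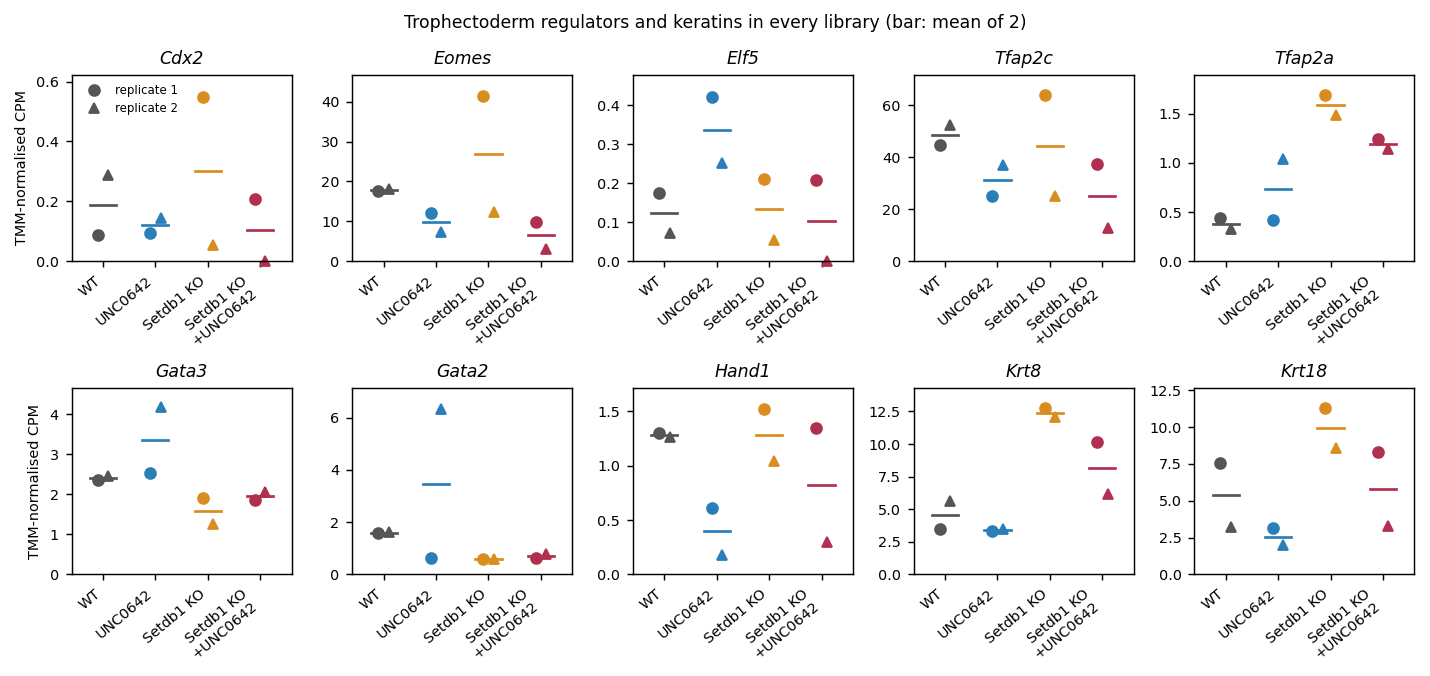
TMM-normalised CPM of each of the 10 genes by condition, with circles for replicate 1, triangles for replicate 2 and a bar at the mean of the 2, each panel on its own axis from 0. Krt8 and Tfap2a are high in both libraries of both KO conditions, Gata2 is high in 1 UNC0642-treated WT library (6.33 CPM), and Eomes and Tfap2c are high in 1 Setdb1 KO library (41.5 and 63.9 CPM).

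The 8 genes that were tested lay on both sides of 0 in every comparison. Of these 8, 5 were higher and 3 lower in the Setdb1 KO condition than in WT, with a median log2 fold change of 0.30 beside -0.06 over all genes tested, in the fit without the block. With the block 4 were higher and 4 lower, with a median of 0.09 beside -0.07 over all genes, and the gene that changed side was Hand1. Without the block, 3 were higher and 5 lower with UNC0642 (median -0.54, all genes -0.04), and 3 were higher and 5 lower with both treatments (median -0.51, all genes -0.06). The libraries of Setdb1 KO and WT mESCs did not overlap for 5 of the 8, beside 29.3% of all genes tested: Tfap2a, Krt8 and Krt18 were higher, and Gata2 and Gata3 lower. UNC0642-treated Setdb1 KO libraries did not overlap WT for 6 of the 8, beside 42.1% of all genes tested: Tfap2a and Krt8 were higher, and Eomes, Tfap2c, Gata2 and Gata3 lower. The untested Cdx2 and Elf5 overlapped in both comparisons. Such shares over all genes were not counted for the other comparisons. For the interaction the edgeR adjusted p rounded to 1.00 for all 8 with and without the block. The 3 comparisons with WT share the same 2 WT libraries.

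**Figure D3:**
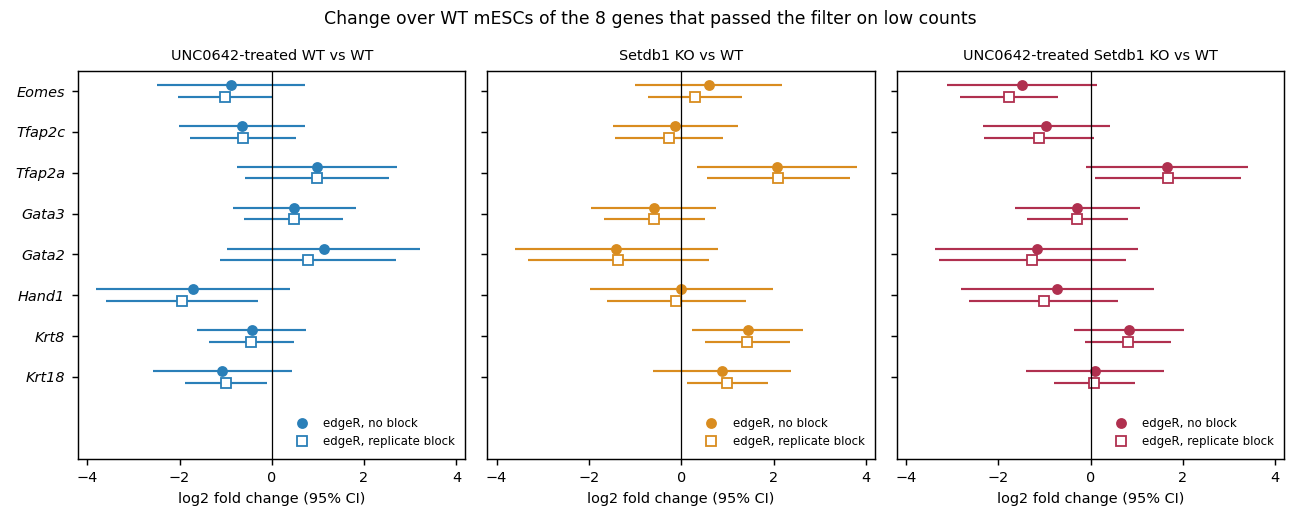
Log2 fold change over WT mESCs (horizontal axis) of the 8 genes that passed the filter, with the 95% interval of the edgeR fit without (filled) and with (open) the replicate block, for 3 comparisons that share the WT libraries. With the block the intervals of Eomes, Hand1 and Krt18 lie below 0 with UNC0642, those of Tfap2a, Krt8 and Krt18 lie above 0 in Setdb1 KO mESCs, and with both treatments that of Eomes lies below 0 and that of Tfap2a above 0. Without the block only those of Tfap2a and Krt8 in Setdb1 KO mESCs leave out 0, and of all these only Eomes with both treatments and the block passed the adjustment.

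Over the 8 libraries, which share treatments and replicate numbers, some pairs of the 8 tested genes varied together. Eomes and Tfap2c had a Pearson r of 0.86 on log2 CPM, Eomes and Hand1 0.76, Hand1 and Krt18 0.81, and Krt8 and Krt18 0.72. Tfap2a and Krt8 had 0.73. Genes linked through such pairs did not all go together, since Eomes had 0.28 with Krt8 and -0.09 with Tfap2a. Gata2 and Gata3 had 0.83, and Gata3 was opposed to both keratins (-0.78 with Krt8 and -0.76 with Krt18). Among all tested genes, the most like Eomes were Unkl (0.96) and Rassf3 (0.95), and the most like Tfap2c were Casc3 (0.95) and Mtf1 (0.95). The most like Tfap2a were Pkd1l2 (0.97) and Pramel1 (0.96), and the most like Krt8 were Mmp25 (0.98) and Tlr1 (0.96). BC021767 (0.98) and Zfp872 (0.97) were the most like Krt18, Klhdc9 (0.96) and Ttll4 (0.94) the most like Hand1, Tshz1 (0.97) and Tnfrsf21 (0.92) the most like Gata3, and Fgr (0.95) and Klk10 (0.91) the most like Gata2. With 8 libraries and 15313 genes such values describe the libraries only.

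The nearest annotated genes on each side were mostly not called. Of the 20 neighbours and overlapping genes outside the 10, 10 were tested, and edgeR without the block called none in any of the 6 comparisons, beside the shares over all genes given above. With the block it called 1, Bmp7, the neighbour of Tfap2c on chromosome 2, which fell by 2.34 (SE 0.54, edgeR adjusted p = 0.0225) on the log2 scale in UNC0642-treated Setdb1 KO relative to WT mESCs. Bmp7, a secreted growth factor, was at 7.66 and 7.72 CPM in WT mESCs and at 1.25 and 2.095 in UNC0642-treated Setdb1 KO mESCs. The gap between Bmp7 and Tfap2c is 309389 bases.

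The Hippo pathway, which acts upstream of Cdx2, showed no called gene without the block (17 of 17 tested, 0 called higher and 0 called lower in all comparisons). Its most abundant members were Yap1, the coactivator, at 186 to 244 CPM over all libraries, and Tead1, a DNA-binding partner, at 136 to 319 CPM. Yap1 changed by 0.10 (SE 0.37) and Tead1 by 0.68 (SE 0.45, edgeR adjusted p = 0.870) in Setdb1 KO over WT mESCs. Tead4, the TEAD factor needed for the trophectoderm and named here after its values were seen, was at 1.74 and 10.3 CPM in WT mESCs and at 17.9 and 3.19 in Setdb1 KO mESCs, and its replicates lay further apart than the means of these conditions. In the blocked fit of both treatments over WT mESCs, where 15.7% of all genes were called, Amotl2, a YAP-binding scaffold, rose by 1.24 and the kinase and scaffold genes Stk3 and Nf2 and the factor Tead2 fell by 1.14, 1.22 and 0.95 on the log2 scale.

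Among 18 factors and signals that trophoblast stem cells, mESCs and the blastocyst use, 1 was called without the block, in a comparison where 3.62% of all genes were called. This was Bmp8b, a BMP ligand, which fell in UNC0642-treated Setdb1 KO mESCs (0 and 3 counts, against 20 and 39 in the WT libraries, with an edgeR adjusted p = 0.0491). With the block Ets2, an ETS factor of the trophoblast, also fell, by 1.34 (edgeR adjusted p = 0.0452) in Setdb1 KO and by 1.45 (edgeR adjusted p = 0.0161) in UNC0642-treated Setdb1 KO relative to WT mESCs, where 3.32% and 15.7% of all genes were called. It fell by 1.32 (edgeR adjusted p = 0.0471) in UNC0642-treated Setdb1 KO relative to UNC0642-treated WT mESCs (3.79% of all genes). The adjusted p of Ets2 without the block was 0.283 and 0.107 in the comparisons with WT mESCs.

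No gene of a list of later trophoblast and placental genes was called higher in any condition. The list also held AP-2 and GATA relatives (Tfap2b, Tfap2d, Tfap2e and Gata1), so its counts and medians are not those of trophoblast genes alone. Of its 24 genes, 13 passed the filter, and none was called without the block. Prl3d1 and Prl3b1, the placental lactogens, had 0 counts in all 8 libraries, and 8 of the 24 had 3 counts or fewer in every library. The median log2 fold change of the 13 was -0.63 with UNC0642, -0.89 in Setdb1 KO and -1.41 in UNC0642-treated Setdb1 KO over WT mESCs, beside -0.04, -0.06 and -0.06 over all genes. The most abundant were Slc2a3, a glucose transporter, which was at 2193 and 2197 CPM in WT mESCs and at 709 and 1196 with both treatments, and Peg10, an imprinted gene of the placenta, at 132 to 1242 CPM over all libraries. With the block 4 of the 13 fell in UNC0642-treated Setdb1 KO relative to WT mESCs, where 15.7% of all genes were called: Phlda2, an imprinted gene that limits placental growth (by 2.68, edgeR adjusted p = 0.00432), the homeobox gene Dlx3 (by 3.83), the AP-2 gene Tfap2e (by 2.85) and Slc2a3 (by 1.28). Phlda2 was also the 1 of the 13 called with the block in Setdb1 KO relative to WT mESCs, where it fell by 1.67 (edgeR adjusted p = 0.0491, 3.32% of all genes), and in UNC0642-treated Setdb1 KO relative to UNC0642-treated WT mESCs, where it fell by 1.84 (edgeR adjusted p = 0.0404, 3.79% of all genes). Phlda2 was at 7.83 and 15.7 CPM in WT mESCs and at 1.25 and 2.43 with both treatments.

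Epithelial genes other than Krt8 and Krt18 were also not called without the block (21 of 23 tested). Over WT mESCs the median log2 fold change was -0.27 with UNC0642, -0.30 in Setdb1 KO and -0.51 in UNC0642-treated Setdb1 KO mESCs. The medians over all genes were -0.04, -0.06 and -0.06. Cdh1, which encodes E-cadherin, was at 237 to 590 CPM and Itga6, an integrin, at 228 to 456 CPM over all libraries. In the blocked fit of both treatments over WT mESCs, where 15.7% of all genes were called, Epcam, an adhesion gene, and Aqp3, a water channel, rose by 1.05 and 1.59, and the tight junction genes Cldn6 and Cldn7, the polarity gene Pard6b and the laminin gene Lama1 fell by 1.94, 2.67, 1.03 and 1.58 on the log2 scale. With the block Lama1 also fell in Setdb1 KO relative to WT mESCs (by 1.75, with 3.32% of all genes called). In UNC0642-treated Setdb1 KO relative to UNC0642-treated WT mESCs Lama1 fell by 2.19 and Epcam rose by 1.34 (3.79% of all genes called).

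Markers of other cell types were checked in the same libraries. The summed CPM of the 10 genes was 79.2 and 85.3 in WT mESCs, 48.4 and 61.9 with UNC0642, 136 and 62.4 in Setdb1 KO mESCs, and 71.1 and 29.3 with both. Pluripotent cell markers summed to between 4289 and 6488 CPM, with 0 of 9 called in any comparison with or without the block. Primitive endoderm markers summed to 69.8 and 76.8 CPM with UNC0642, above both WT libraries (16.6 and 54.2), and the other conditions were at 14.1 to 25.5. Of its 8 tested markers 0 were called without the block, and with the block 1, Gata4, a GATA factor of the primitive endoderm, fell by 1.44 in UNC0642-treated Setdb1 KO relative to UNC0642-treated WT mESCs (edgeR adjusted p = 0.0484), where all 8 were lower (median -1.54) and 3.79% of all genes were called. Mesoderm markers are given with Eomes above. Neuroectoderm markers summed to 31.1 to 92.8 CPM over all libraries, and of 5 tested 0 were called without the block. With it 1, Olig2, fell in UNC0642-treated Setdb1 KO relative to WT mESCs (15.7% of all genes called). Markers of 2-cell-like cells, a rare state of mESC cultures, summed to 9.05 and 27.2 CPM in WT mESCs, 793 and 269 with UNC0642, 372 and 151 in Setdb1 KO mESCs, and 1434 and 602 with both. Of 9 tested markers of this state, the fit without the block called 8 higher with both treatments (3.62% of all genes), 1, Usp17la, in Setdb1 KO mESCs (0.888%) and 0 with UNC0642, all relative to WT mESCs. With the block it called 9 with both treatments (15.7% of all genes), 8 in Setdb1 KO mESCs (3.32%) and 2 with UNC0642 (0.176%). Fibroblast markers summed to at most 24.0 CPM, and were higher in replicate 2 than in replicate 1 of every condition, replicate 1 being at 6.60 to 11.8 CPM. Of 6 tested, 0 were called without the block. With it Lum rose and Pdgfrb fell in UNC0642-treated Setdb1 KO relative to WT mESCs (15.7% of all genes called), and Lum rose relative to UNC0642-treated WT mESCs (3.79%). The part of these cell states in the values of the 10 genes was not tested.

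**Figure D4:**
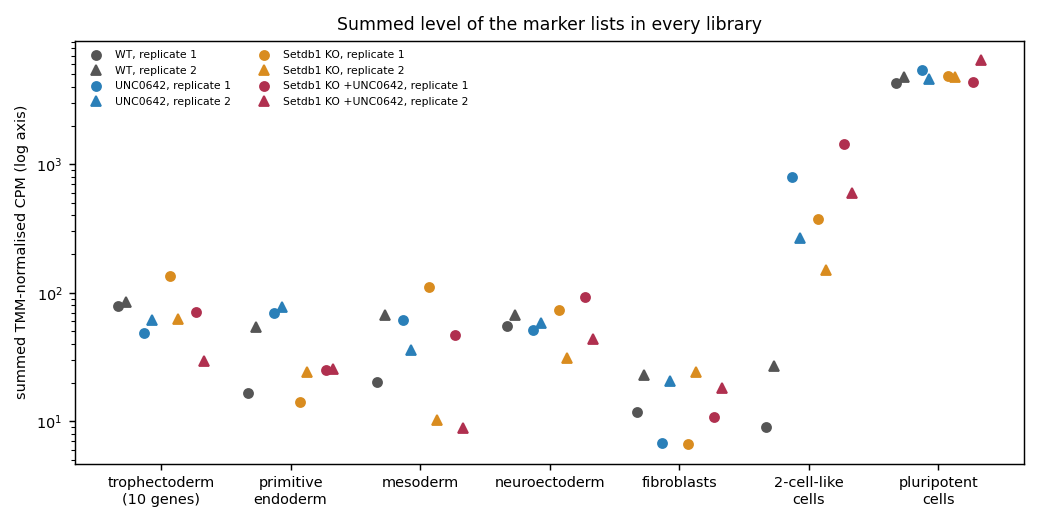
Summed TMM-normalised CPM (log axis) of the 10 trophectoderm genes and of marker lists of other cell types, with 1 point per library, coloured by condition and shaped by replicate. The trophectoderm sum stays between 29.3 and 136 CPM, while the sum of 2-cell-like markers ranges from 9.05 to 1434 CPM.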

How the data were processed

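Poly(A) RNA of mESCs was sequenced in 8 libraries, 2 for each of 4 conditions, and the labels gave each library's condition and replicate number. The authors trimmed reads with Trim Galore 0.3.7, mapped them to GRCm38 with TopHat2 and counted them with TEtranscripts. What they deposited are raw counts for genes and for subfamilies of transposable elements, with no normalization or filter. TEtranscripts shares reads with several positions, and the strand setting of the counting is not given in the sources used here. For 4-OHT, the study's methods state 5 days in either KO condition.

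filterByExpr, at its defaults of 10 counts and 15 in total, left 15313 genes and 932 subfamilies. TMM factors were 0.810 to 1.20. Depth was 11702590 to 26807807 counts, at which 3 counts, taken as the detection floor, equal 0.108 to 0.311 CPM. Limits from counts cover counting error only. A quasi-likelihood model (edgeR 4.0.16, R 4.3.3) used all 8 libraries and a mean for each condition, with Benjamini-Hochberg adjustment over all rows of a comparison. The SE was computed from the log2 fold change and its F statistic. The deviations of same-numbered replicates correlated between 0.285 and 0.663 over the 6 pairs of conditions, so the numbers were taken as pairing the libraries. That pairing is not stated in the sources used here, and the block was fitted beside the main model. DESeq2 1.42.0 was an alternative, as were other normalizations, filters, fold change thresholds and leaving out each library.

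The 10 genes, the gene lists and the tests were chosen with earlier results of these data known. Also named are the list genes called without the block (otherwise the 2 most abundant of a list), the 2 genes most like each gene by Pearson r on log2 CPM (prior count 2), and the nearest genes with a row. Genes named because the block called them were chosen after their values were seen. Promoters are RefSeq's (GRCm38.p6), and exon lengths are from GENCODE M21.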

Additional observations from a re-analysis of the deposited data

How the results depend on the processing

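No called gene among the 10 depended on normalization, filter or model size: DESeq2 without a block, edgeR on the 4 libraries compared, RLE or total counts normalization, no filter, genes without subfamilies and fold change thresholds each gave 0 called genes in every comparison, as in the fit without the block. Fits without 1 library leave a condition with a single library and little power to call any gene. They therefore could not test whether the absence of calls holds. The replicate block gave 1 called gene, Eomes, in UNC0642-treated Setdb1 KO over WT mESCs, and 1 with a fold change above 2, and it changed no other call among the 10. DESeq2 with the block, chosen after the data were seen like the block with a fold threshold, gave 1 in each of 4 comparisons: Krt8 in Setdb1 KO over WT mESCs (1.41, DESeq2 adjusted p = 0.0215, with 6.88% of all genes called), Eomes in UNC0642-treated Setdb1 KO over WT (-1.75, 0.00297, 22.4%) and over Setdb1 KO mESCs (-2.03, 0.00322, 2.55%), and Krt8 in UNC0642-treated Setdb1 KO over UNC0642-treated WT mESCs (1.28, 0.0471, 7.75%). The cause of these differences was not tested.

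The sign of uncalled log2 fold changes turned in a few settings. For Hand1 in Setdb1 KO over WT mESCs (0.0048) these gave -0.11 with the block, -0.0044 and -0.0044 with DESeq2 on all 8 and on 4 libraries, -0.023 with edgeR on 4 libraries, -0.0035 with RLE, -0.097 with total counts and -0.12 with DESeq2 and the block. Krt18 in UNC0642-treated Setdb1 KO over WT mESCs (0.09) was -0.12 with total counts, which shift the median of all genes by -0.17 there and by -0.21 in UNC0642-treated Setdb1 KO over UNC0642-treated WT mESCs.

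Without 1 library, values over WT mESCs ranged from -1.41 to 1.99 for Gata2 with UNC0642. In Setdb1 KO they ranged from -0.53 to 1.18 for Eomes, -0.96 to 0.37 for Tfap2c and -0.30 to 0.22 for Hand1. In UNC0642-treated Setdb1 KO they ranged from -2.11 to 0.073 for Hand1 and -0.72 to 0.81 for Krt18. Over Setdb1 KO, UNC0642-treated Setdb1 KO mESCs ranged from -2.12 to 0.10 for Hand1. Over UNC0642-treated WT mESCs they ranged from -1.68 to 0.036 for Eomes, -1.31 to 0.27 for Tfap2c, -3.16 to 0.21 for Gata2 and -0.40 to 2.06 for Hand1. The interaction ranged from -1.19 to 0.63 for Tfap2c, -1.76 to 1.66 for Gata2, -0.50 to 0.28 for Gata3, -0.41 to 2.05 for Hand1, -0.59 to 0.20 for Krt8 and -0.54 to 0.85 for Krt18.

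Genes called over all genes, the background of the counts, moved further. In Setdb1 KO over WT mESCs 136 became 509 with the block, 445 with DESeq2, 230 without a filter, 80 with total counts and 0 without either WT library. In UNC0642-treated Setdb1 KO over WT mESCs 554 became 2407 with the block, 1304 with DESeq2, 0 without WT replicate 1 and 47 without WT replicate 2. In UNC0642-treated Setdb1 KO over UNC0642-treated WT mESCs 139 became 580 with the block, 461 with DESeq2, 53 with total counts and 5 without UNC0642-treated WT replicate 1.

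With 2 libraries per condition, the 95% intervals of the 8 tested genes spanned several units on the log2 scale, and those of Cdx2 and Elf5 were wider still.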
